A study of Homo sapiens with 10 samples.

Results

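Metallothioneins are small, cysteine-rich proteins that bind zinc and copper, and also cadmium. The family examined here was the list MT1A, MT1E, MT1F, MT1G, MT1H, MT1M, MT1X, MT2A and MT3, 9 human genes. A probe set was taken for a gene where the platform annotation gave it that symbol, with the brightest by mean signal over 10 arrays to be used where several existed. This gave 8 probe sets of 21448, since MT1A was matched to none, and no member had more than 1. The family itself was selected on earlier results of these same signals, so what follows describes its levels and changes.

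The arrays came from 2 human neuroblastoma lines in 4 groups. SK-N-AS cells exposed to BG-P-TAT at 30 µM (3 arrays, numbered 28, 29 and 30) were compared with control SK-N-AS cells (3 arrays, 25, 26 and 27). SK-N-FI cells exposed to BG-P1600-TAT at 30 µM (2 arrays) were compared with control SK-N-FI cells (2 arrays). Exposure lasted 48 h, all control cells received PBS, and both lines grew in the same serum-containing medium. By its title, the series concerns a conjugate aimed at the norepinephrine transporter and the integrin αvβ3. The SK-N-AS compound name was read as the same BG-P1600-TAT. The design text speaks of 3 biological replicates for SK-N-FI, while the series holds 2 arrays per condition of that line, all analysed here. No such statement is made for the SK-N-AS arrays, so the spread behind their p-values may be technical.

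In human cells the genes MT1 and MT2A are expressed in many tissues, and MT3, first described as a growth inhibitory factor, mainly in the nervous system. Transcription of MT1 genes and MT2A rises with zinc, cadmium and copper through MTF1, a zinc-sensing factor that binds metal response elements in their promoters. It also rises with glucocorticoids and oxidative stress. SLC39A importers bring zinc into the cytosol, where metallothioneins bind it, and SLC30A exporters remove it. All 9 genes lie in 1 run of 16 metallothionein loci on chromosome 16 in RefSeq of GRCh38.p14, pseudogenes included. Their transcripts are closely alike in sequence, so a probe set of one MT1 gene may also take up RNA of another. How far probes overlap was not tested.

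The promoters of 3 members were searched for the element through which MT1 genes and MT2A answer to metal. The promoter set used here held only these, and those of the other members were not searched. The 3 windows run from 250 bases before the annotated gene start to 50 bases from it, as in RefSeq of GRCh38.p14. All lie on the plus strand, MT2A at chr16:56608334-56608633, MT1X at chr16:56682220-56682519 and MT1H at chr16:56669564-56669863. Capitals mark the core of the metal response element, searched as TGCACNC and TGCGCNC on both strands.
MT2A: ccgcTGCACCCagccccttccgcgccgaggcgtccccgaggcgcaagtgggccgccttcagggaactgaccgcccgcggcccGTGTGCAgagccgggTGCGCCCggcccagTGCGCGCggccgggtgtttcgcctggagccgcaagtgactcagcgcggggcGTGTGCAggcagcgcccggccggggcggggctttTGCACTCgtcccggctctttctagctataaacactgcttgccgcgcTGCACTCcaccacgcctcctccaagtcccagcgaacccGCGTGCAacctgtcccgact
MT1X: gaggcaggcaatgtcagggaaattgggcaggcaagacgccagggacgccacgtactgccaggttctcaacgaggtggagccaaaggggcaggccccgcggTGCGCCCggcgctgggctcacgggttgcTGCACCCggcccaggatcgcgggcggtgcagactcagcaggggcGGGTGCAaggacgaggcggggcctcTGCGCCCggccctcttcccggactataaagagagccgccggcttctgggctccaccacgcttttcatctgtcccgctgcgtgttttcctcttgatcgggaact
MT1H: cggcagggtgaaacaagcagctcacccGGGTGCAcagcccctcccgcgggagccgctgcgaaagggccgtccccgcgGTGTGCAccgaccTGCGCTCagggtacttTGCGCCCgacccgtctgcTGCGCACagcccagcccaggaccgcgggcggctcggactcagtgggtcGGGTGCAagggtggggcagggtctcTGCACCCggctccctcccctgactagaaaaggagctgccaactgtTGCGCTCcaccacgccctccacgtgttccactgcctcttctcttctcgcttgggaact
The MT2A window held 8 matches, MT1X held 4 and MT1H held 8. At least 1 match was found in 29.6% of 35116 promoters of this length, and at least 8 in 0.0199%. MT1X and MT1H each had matches that began 78 and 53 bases before the start, and MT2A had one that began 54 bases before it. The box TATAAA began 29 bases before the start in MT2A and 30 bases before it in MT1X. These letters were not found in the MT1H window, and 11.5% of promoters held them on either strand. A match of letters is not a site shown to be bound.

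**Figure D1:**
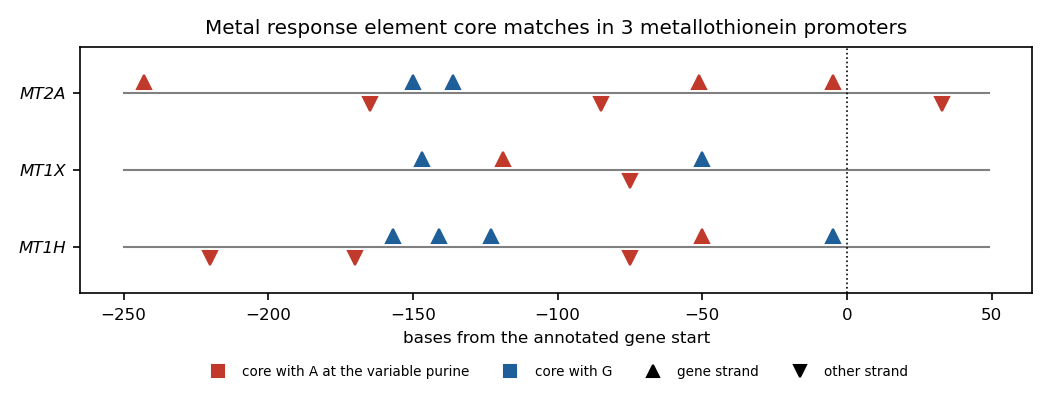
Positions of the metal response element core in the promoters of MT2A, MT1X and MT1H, in bases from the annotated gene start (dotted line). Each triangle is 1 match, pointing up on the gene strand and down on the other, and colour gives the form of the core. MT2A and MT1H have 8 matches each and MT1X has 4.

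Background was read from 612 negative control probe sets, and a signal above their 95th percentile on the same array was taken as above background. This threshold was 6.75 to 7.23 in SK-N-AS and 7.44 to 8.26 in SK-N-FI (log2 signal). MT1G, MT1M, MT1X and MT2A exceeded it on all 10 arrays, MT1F on 9, MT1H on 3, MT1E on 2 and MT3 on 1. Results for MT1E, MT1H and MT3 therefore concern signals at or near background, and not at a measured level. Marker genes were read as a check of the line labels. Of 9 noradrenergic markers, 8 were above background on every SK-N-FI array and 4 on every SK-N-AS array, and their summed log2 signal was 63.1 to 66.8 on SK-N-AS arrays and 106 to 109 on SK-N-FI arrays. Of 10 mesenchymal markers, 5 were above background on every SK-N-AS array and 3 on every SK-N-FI array. Their summed log2 signal was 77.9 to 83.8 on SK-N-AS arrays and 72.3 to 73.2 on SK-N-FI arrays. Between control arrays as deposited, 4 of them were called higher in SK-N-AS (limma adjusted p under 0.05), beside 11.5% of all probe sets. Of these, FN1 and FOSL1 were above background on all 3 SK-N-AS control arrays, YAP1 on 1 and PRRX1 on none. CD44 and SNAI2 were called lower, beside 47.8%, as were 8 of the 9 noradrenergic markers. After quantile normalization 6 mesenchymal markers were called higher and 1, CD44, lower, beside 24.1% and 22.5%. Of the noradrenergic markers 5 were then called lower and 1, CHGA, higher. Among markers of other cell types, none of 3 glial genes was above background on any array, PTPRC of 4 blood genes was on 5 SK-N-AS arrays, and KRT8 of 5 epithelial genes was on 9 arrays.

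The level of each member in the 4 groups was examined first. The clearest difference in the family lay between the lines and not between the arms. MT2A had log2 signals of 15.96, 15.70 and 15.42 in treated SK-N-AS cells and 16.01, 16.02 and 15.92 in control SK-N-AS cells. In SK-N-FI it had 13.25 and 13.22 in treated cells and 13.63 and 13.20 in control cells. Every SK-N-AS array was above every SK-N-FI array, and the arms overlapped within each line.

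MT1X, another widely expressed form, had log2 signals of 13.02, 12.72 and 12.05 in treated SK-N-AS cells and 13.29, 12.88 and 12.97 in control SK-N-AS cells. In SK-N-FI it had 11.54 and 11.46 in treated cells and 12.02 and 11.42 in control cells. Here too the lines did not overlap, with treated array 30 the lowest of the SK-N-AS arrays.

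MT1G had log2 signals of 11.85, 11.15 and 11.27 in treated SK-N-AS cells and 11.57, 11.71 and 11.92 in control SK-N-AS cells. In SK-N-FI it had 11.23 and 11.24 in treated cells and 11.76 and 10.85 in control cells. The SK-N-FI control arrays lay on both sides of the treated arrays, and the lines overlapped. MT1F had 8.41, 7.84 and 8.28 in treated SK-N-AS cells and 7.89, 8.68 and 8.95 in control SK-N-AS cells. In SK-N-FI it had 7.86 and 7.92 in treated cells and 8.33 and 7.92 in control cells. The SK-N-FI arms did not overlap, though treated array 2 and control array 2 are equal as rounded, and treated array 1 was below its background threshold.

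MT1M had log2 signals of 9.90, 9.59 and 9.39 in treated SK-N-AS cells and 9.80, 9.65 and 9.80 in control SK-N-AS cells. In SK-N-FI it had 10.30 and 10.24 in treated cells and 10.00 and 10.11 in control cells. On the deposited scale every SK-N-FI array exceeded every SK-N-AS array, an order opposite to that of MT2A and MT1X.

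Of the dim members, MT1E ranged from 6.75 to 6.95 in treated and from 6.90 to 7.51 in control SK-N-AS cells, and from 6.76 to 7.24 in treated and from 7.11 to 7.41 in control SK-N-FI cells. MT1H ranged from 6.66 to 7.18 and from 7.04 to 7.20 in treated and control SK-N-AS cells, and from 5.86 to 6.37 and from 6.16 to 6.22 in treated and control SK-N-FI cells. MT3 ranged from 5.41 to 5.71 and from 5.63 to 5.94 in treated and control SK-N-AS cells, and from 7.20 to 7.80 and from 7.05 to 7.51 in treated and control SK-N-FI cells. Its 1 array above background was treated SK-N-FI array 2.

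**Figure D2:**
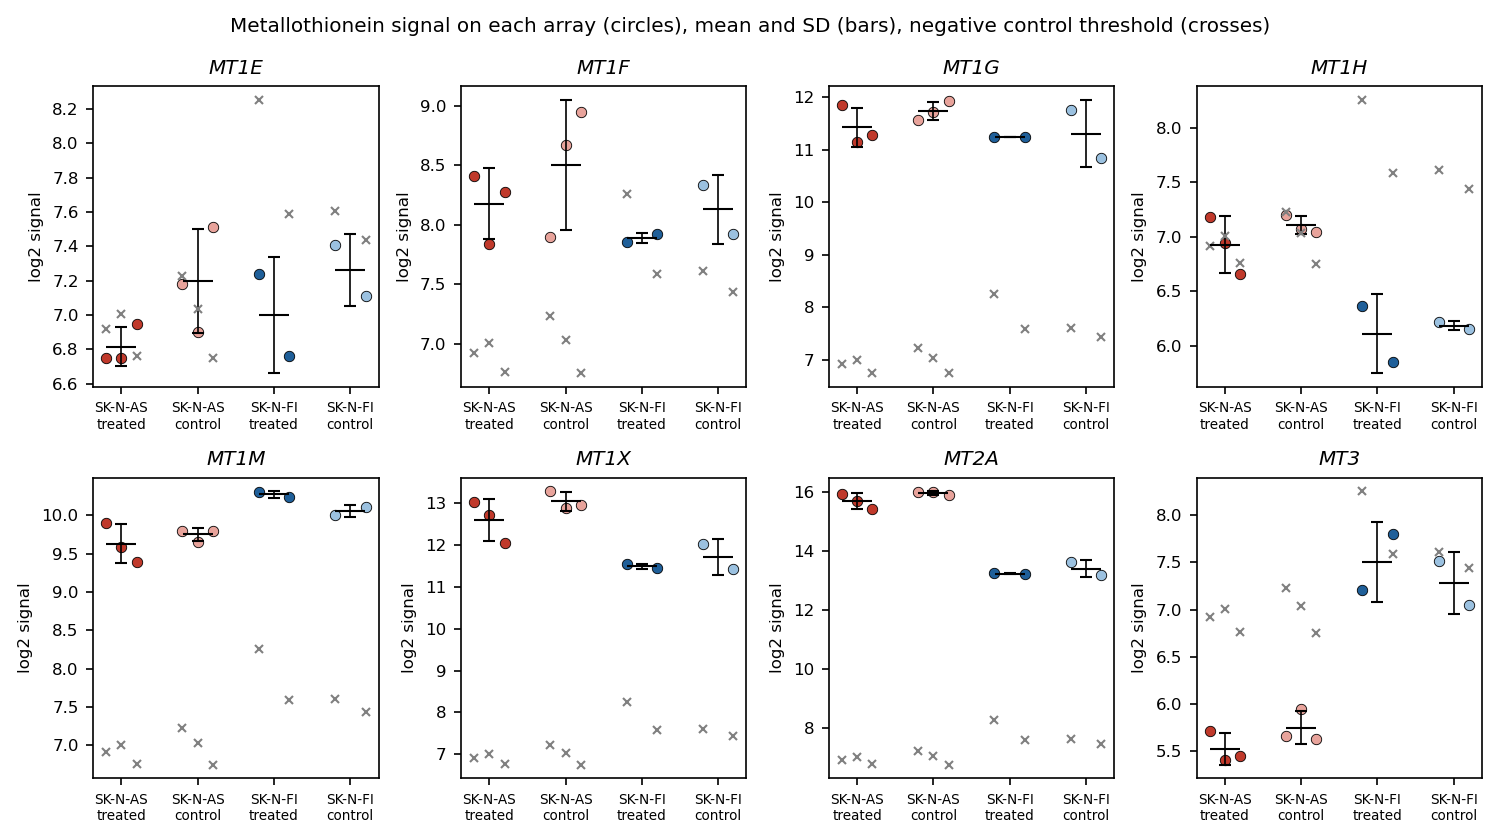
Log2 signal of the 8 members in the 4 groups, with 1 panel a gene and a vertical axis of its own. Circles are arrays, bars give the mean and SD (n = 3 in SK-N-AS, n = 2 in SK-N-FI), and crosses give each array's negative control threshold. MT2A and MT1X are higher on every SK-N-AS array than on any SK-N-FI array, and MT1M is lower. MT1H and MT3 are also separated by line, but with MT1E they lie near or below the crosses.

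The first comparison asked how the conjugate affected the family in SK-N-AS. The mean of treated cells was below that of control cells for all 8 members, and none passed the test. The median log2 change over the members was -0.30, beside -0.005 over all probe sets, of which 50.8% had a lower mean. MT1X had the change farthest from 0, with 12.60 ± 0.50 in treated and 13.05 ± 0.22 in control cells (log2 signal, SD, n = 3), a log2 change of -0.45 (95% interval -1.08 to 0.18). MT2A had 15.69 ± 0.27 in treated and 15.98 ± 0.06 in control cells, a change of -0.29 (-0.77 to 0.19). MT1G had a change of -0.31 (-0.86 to 0.24) and MT1F of -0.33 (-1.02 to 0.36). Changes of the dim members were -0.38 for MT1E, -0.18 for MT1H and -0.22 for MT3, and MT1M had -0.12.

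Limma gave an adjusted p of 1.00 for each of the 8 members (unadjusted p from 0.12 for MT1E to 0.583 for MT1M, n = 3 per group), and called 0% of probe sets, with 2.6% at an unadjusted p under 0.05. No member had arms that did not overlap, beside 4.02% of probe sets with every treated array below every control array and 3.29% with every treated array above. Fewer cells with metallothionein RNA and less of it per cell cannot be told apart in such bulk samples.

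Treated arrays 29 and 30 lay lower than array 28. On array 29 all 8 members lay below every control array, beside 22.7% of all probe sets, and on array 30 this held for 6 members, beside 30.4%. On array 28 it held for 1 member, MT1E, beside 20.4%. Both arrays 29 and 30 were below every control array for 6 members (MT1G, MT1H, MT1M, MT1X, MT2A and MT3) and for 11.8% of all probe sets. This split of the treated arrays was made after their values were seen and gets no test. The median deviation of the members from their control means was -0.02 on array 28, -0.33 on array 29 and -0.40 on array 30. The widest single deviation was -0.99, for MT1X on array 30.

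**Figure D3:**
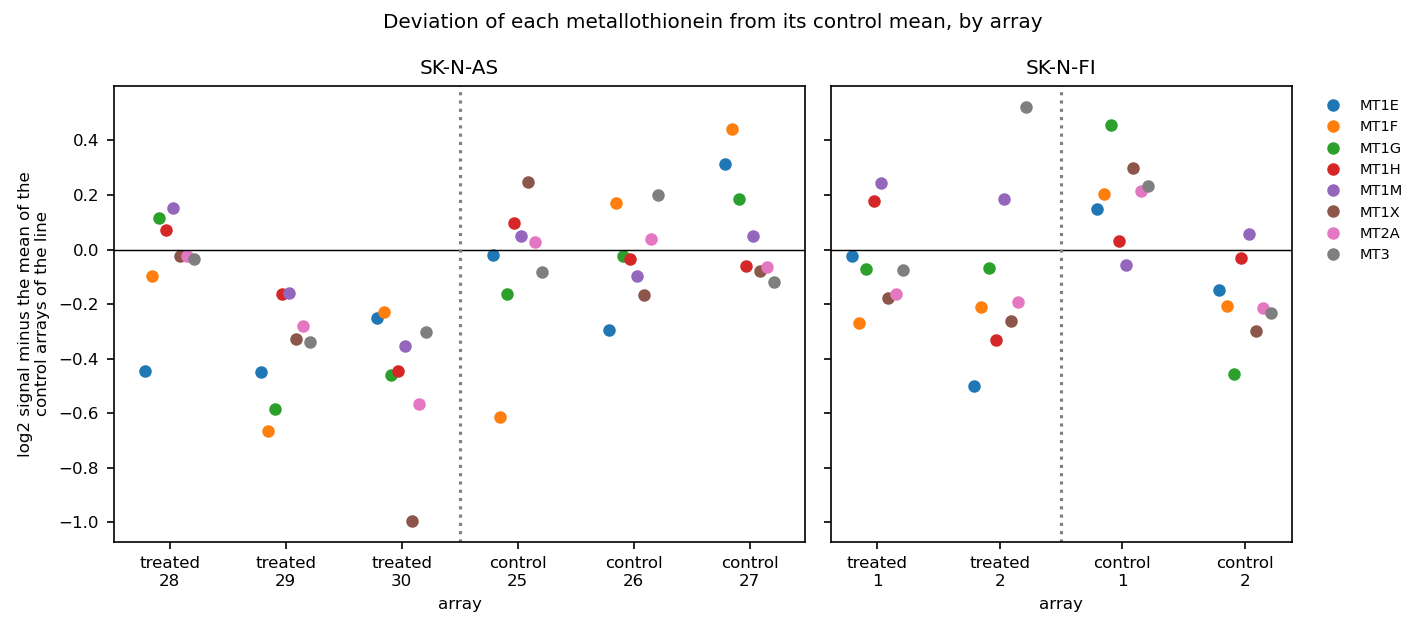
Log2 signal of each member minus the mean of the control arrays of its line, by array, for SK-N-AS (left) and SK-N-FI (right). Points are genes, and dotted lines part treated from control arrays. In SK-N-AS all points of arrays 29 and 30 are below 0, and those of array 28 are spread about 0 apart from MT1E.

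Without treated array 28 the median change was -0.39, and without array 29 or array 30 it was -0.18 in each case. The first principal component of the SK-N-AS arrays had scores of -31.0, 6.71 and 50.6 on treated arrays 28, 29 and 30 and of -57.5, 26.9 and 4.33 on control arrays 25, 26 and 27. Without arrays 25 and 28, which had the lowest scores, the median change was -0.39 and all 8 members again had lower means.

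The effect of the conjugate in SK-N-FI was examined next. Here the treated mean was the lower for 6 members and the higher for 2, MT1M and MT3. No member reached the threshold (limma, adjusted p = 1.00 throughout, 0% of probe sets called and 2.85% at an unadjusted p under 0.05, unadjusted p from 0.334 for MT1M and MT1F to 0.833 for MT1G, n = 2 per group). The median change was -0.13, beside -0.005 over all probe sets, of which 51% had a lower and 49% a higher mean. MT1M had 10.27 ± 0.04 in treated and 10.05 ± 0.08 in control cells (SD, n = 2), a log2 change of 0.22 (95% interval -0.27 to 0.70). MT1F had 7.89 ± 0.04 in treated and 8.13 ± 0.29 in control cells, a change of -0.24 (-0.79 to 0.30). The arms did not overlap for MT1F, with lower treated arrays as in 14% of all probe sets, nor for MT1M, with higher treated arrays as in 13.8%.

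MT2A had 13.23 ± 0.02 in treated and 13.41 ± 0.30 in control SK-N-FI cells (SD, n = 2), a log2 change of -0.18 (-0.73 to 0.37). MT1X had a change of -0.22 and MT1G of -0.07. Control array 1 set these signs: without it the changes were 0.038 for MT2A, 0.078 for MT1X and 0.39 for MT1G, and 3 members had lower means. Without control array 2 the median over the members was -0.40. The dim members had changes of -0.26 for MT1E, -0.08 for MT1H and 0.22 for MT3.

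**Figure D4:**
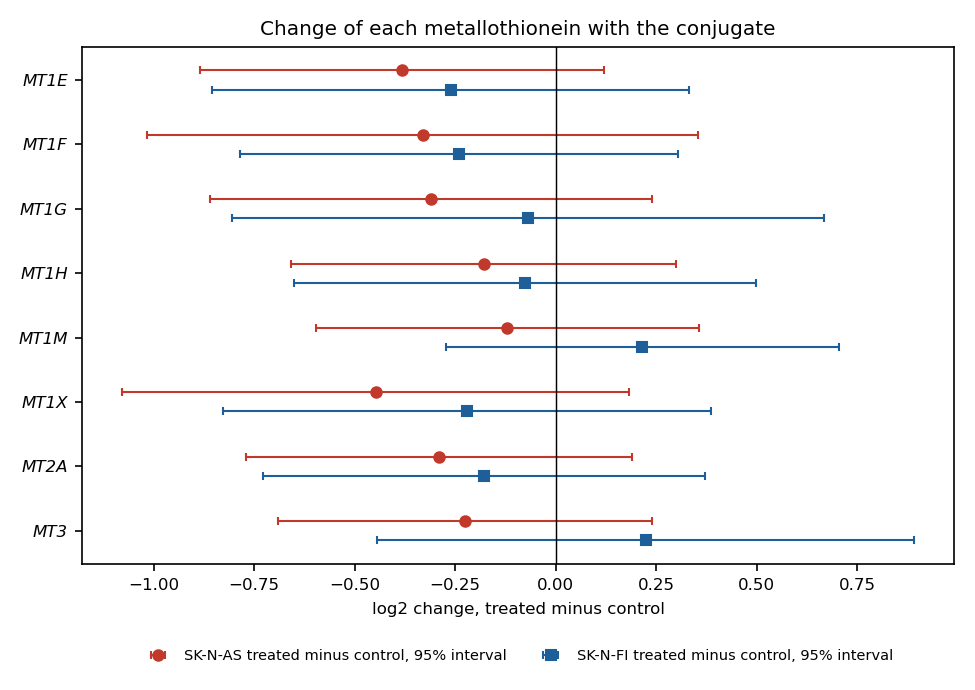
Log2 change of each member, treated minus control, with its 95% interval from the fit in SK-N-AS (circles, n = 3 per group) and SK-N-FI (squares, n = 2 per group). All intervals include 0. All 8 SK-N-AS changes are below 0, and MT1M and MT3 are above 0 in SK-N-FI.

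The effects of the lines were then set against each other in 1 fit of all 10 arrays. The change in SK-N-AS was below that in SK-N-FI for all 8 members, with a median difference of -0.17, beside 49.7% of all probe sets below 0. The difference was -0.34 (95% interval -1.01 to 0.34) for MT1M, -0.24 (-1.16 to 0.68) for MT1G, -0.23 (-1.15 to 0.70) for MT1X and -0.11 (-0.83 to 0.60) for MT2A. For MT3, below background on 9 arrays, it was -0.45. None passed (limma interaction, adjusted p = 1.00 for each, 0% of probe sets called and 2.13% at an unadjusted p under 0.05). Without treated SK-N-AS array 30 the difference was 0.046 for MT1X, 0.025 for MT2A and 0.031 for MT1H. Without SK-N-FI control array 2 it was above 0 for MT1E, MT1F, MT1G, MT1X and MT2A. MT1E and MT1F were above 0 without SK-N-AS control array 27, MT1E and MT1H without SK-N-FI treated array 1, and MT1F without SK-N-AS treated array 29.

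The control arrays of the lines were compared to see how basal levels differed. The labels give no array batch, so line and any such batch cannot be told apart in this comparison. MT2A and MT1X were higher in SK-N-AS on every scale used. Control SK-N-AS cells had 15.98 ± 0.06 (SD, n = 3) for MT2A and control SK-N-FI cells 13.41 ± 0.30 (SD, n = 2), a log2 difference of 2.57 (95% interval 2.06 to 3.08, limma adjusted p = 1.31e-06) or 5.94-fold. For MT1X the values were 13.05 ± 0.22 and 11.72 ± 0.42 in SK-N-AS and SK-N-FI, a difference of 1.33 (0.67 to 1.98, limma adjusted p = 0.00208) or 2.51-fold. MT1H had a difference of 0.92 (limma adjusted p = 0.0049). It was above background on 2 of 3 SK-N-AS and on neither SK-N-FI control array, so no fold is given.

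MT3 was called lower in SK-N-AS (difference -1.53, limma adjusted p = 0.000206), and was above background on no control array of either line. MT1F at 0.38 (adjusted p = 0.319), MT1G at 0.43 (0.24), MT1M at -0.31 (0.248) and MT1E at -0.06 (0.846) did not pass in limma. MT1F passed without SK-N-AS control array 25 (0.68, limma adjusted p = 0.047), and MT1G passed without SK-N-FI control array 1 (0.88, limma adjusted p = 0.0435). Of all probe sets, 11.5% were called higher and 47.8% lower in SK-N-AS, and the median difference over all of them was -0.61. The members' median was 0.40. Control arrays of the lines did not overlap for MT1H, MT1X and MT2A, higher in SK-N-AS as in 17.2% of all probe sets, and for MT1M and MT3, lower as in 56%.

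That offset moves the count of members. After the medians of the arrays were aligned, 6 members were called higher and MT3 was called lower, beside 34.9% and 27.8% of all probe sets, with MT1M at 0.54 (limma adjusted p = 0.0566) not passing. After quantile normalization over the 10 arrays, 7 members were called higher, beside 24.1% of all probe sets, and none lower, beside 22.5%. MT3 at -0.55 did not pass (adjusted p = 0.0989, limma). Differences were then 3.20 for MT2A, 2.67 for MT1X, 1.95 for MT1G, 1.93 for MT1H, 1.91 for MT1F, 1.39 for MT1M and 1.21 for MT1E. MT1M and MT1E thus changed direction with the scaling.

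The rank of a probe set within its array does not depend on such scaling. Quantile normalization is itself built on these ranks, so they are no separate check on that scale. MT2A stood above 99.4% to 99.5% of the gene probe sets of the SK-N-AS control arrays and above 94.7% to 96.1% of those of SK-N-FI. For MT1M these ranks were 85.2% to 86.7% in SK-N-AS and 75.7% to 76.3% in SK-N-FI, and for MT1F 73.3% to 80.4% and 59.2% to 62.4%. In rank each of the 3 was higher in every SK-N-AS control array than in any SK-N-FI control array, while MT3 was lower (48.3% to 51.7% against 53.0% to 56.3%).

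**Figure D5:**
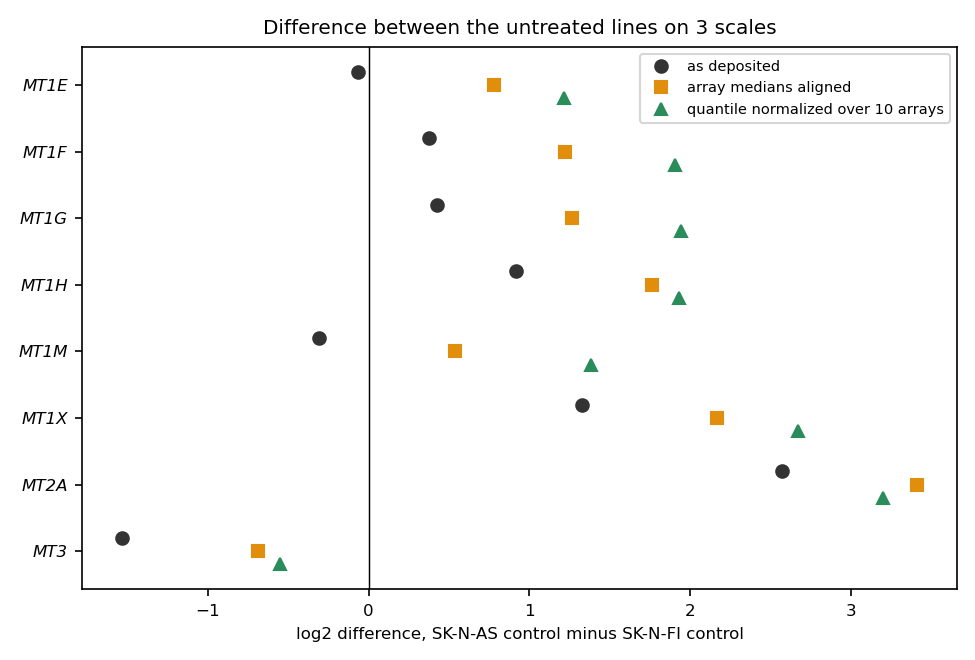
Log2 difference of each member between control arrays, SK-N-AS (n = 3) minus SK-N-FI (n = 2), on the deposited scale, with array medians aligned, and after quantile normalization over 10 arrays. MT2A, MT1X, MT1H, MT1G and MT1F are above 0 on each scale, MT3 is below 0 on each, and MT1E and MT1M change sides.

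Of 8 other metallothionein loci listed, 5 had a probe set, and only MT1B and MT1L were above background on all 10 arrays. MT1B, a further MT1 gene, averaged 13.30 in treated and 13.68 in control SK-N-AS cells, a log2 change of -0.38, and 12.45 in treated and 12.11 in control SK-N-FI cells, a change of 0.34. MT1L, a transcribed pseudogene, had changes of -0.23 in SK-N-AS and 0.13 in SK-N-FI. MT4, known from squamous epithelium, MT1HL1 and the pseudogene MT1IP were above background on no array, so their means concern background signal. In SK-N-FI all 5 loci had higher means in treated cells, beside 49% of all probe sets. There the arms did not overlap for MT1B, MT1L, MT4 and MT1HL1, with higher treated arrays as in 13.8% of all probe sets. In SK-N-AS 4 of 5 had lower means, beside 50.8%. None passed in either line (limma), beside 0% of all probe sets called. Between control cells MT1B was 1.57 and MT1L 0.96 higher in SK-N-AS (log2, limma adjusted p = 0.000715 and 0.00442), and both were also called higher after quantile normalization.

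Genes listed as metal-responsive regulators or as zinc transporters were counted next. None of 8 regulators, 10 SLC30A exporters or 14 SLC39A importers was called in SK-N-AS or in SK-N-FI, beside 0% of all probe sets. MTF1, the metal-sensing activator of MT1 genes and MT2A, had a change of -0.12 (-0.68 to 0.43) in SK-N-AS and of -0.12 in SK-N-FI. Between control cells it was 1.63 lower in SK-N-AS as deposited (limma adjusted p = 0.000184), and 0.11 higher after quantile normalization, where it did not pass. Among the other listed regulators, NR3C1, the glucocorticoid receptor, had a SK-N-AS change of 0.49 (-0.71 to 1.69). Its signal was above background on 6 of 10 arrays. NFE2L2, the oxidative stress factor NRF2, had 0.43 (-1.16 to 2.02), MTF2 0.32 (-0.45 to 1.09) and USF1 -0.16 (-0.73 to 0.41). Whether MTF2 or the other listed genes act on metallothioneins in these cells was not tested.

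SLC30A1, the plasma membrane zinc exporter and itself a target of MTF1, had a change of 0.13 in SK-N-AS and of -0.23 in SK-N-FI. SLC30A5 had a SK-N-AS change of 0.25. SLC30A4 had 0.69 (0.16 to 1.22), SLC30A8 0.26 and SLC30A2 -0.31, all from signals above background on no SK-N-AS array. SLC39A14, a zinc importer of the plasma membrane, had 10.55 in treated and 11.15 in control SK-N-AS cells, a change of -0.60 (-1.07 to -0.13). It had a change of -0.36 in SK-N-FI. SLC39A7 had a SK-N-AS change of -0.25 and SLC39A9 of 0.25. SLC39A8, a second plasma membrane importer, had a SK-N-AS change of 0.34. It was above background on 6 arrays, those of SK-N-AS, and averaged 9.49 in control SK-N-AS and 4.19 in control SK-N-FI cells (log2 signal). Set against the background thresholds of the SK-N-FI control arrays, it was at least 3.90-fold higher in control SK-N-AS cells. Its measured means gave a limma adjusted p of 3.54e-08, and quantile normalization gave a bound of at least 10.3-fold. Of the 14 importers, 2 were called higher and 9 lower in control SK-N-AS cells as deposited, beside 11.5% and 47.8% of all probe sets. After quantile normalization 5 were called higher and 1 lower, beside 24.1% and 22.5%. The lower one, SLC39A10, differed by -1.82 (limma adjusted p = 0.000528).

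Genes outside the family were ranked by likeness to the mean profile of the 4 members above background on all 10 arrays. The measure was the mean absolute difference between profiles over the 10 arrays, each centred on its line and scaled to an SD of 1, among 5109 named probe sets. The closest was KDM5C, a histone demethylase, at 0.23 SD, followed by FN3KRP (0.26), NUP188, a nuclear pore subunit (0.27), the kinase gene ULK3 (0.27) and TLE3, a corepressor (0.28), where the median over the 5109 was 1.02. MT1B and MT1L lay at 0.51 each, and the members themselves between 0.31 for MT2A and 0.55 for MT1M. KDM5C had log2 signals of 10.43, 10.27 and 10.10 in treated and 10.40, 10.39 and 10.48 in control SK-N-AS cells, an order that its choice by the members' profile fixed. NUP188 had a SK-N-AS change of -0.49, and none of the 5 passed (limma adjusted p = 1.00 for each).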

How the data were processed

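The authors deposited log2 signals, 1 per probe set for each of 10 arrays. Among tools, RMA is listed in the submitters' processing notes, as is version 4.0.1.36 of Transcriptome Analysis Console, and the role of each is not given. Other settings are not given in the sources used here. Array medians over gene probe sets were 5.75 to 5.81 in SK-N-AS and 6.61 to 6.62 in SK-N-FI, as if each line had been normalized on its own, and differences between them are given on 3 scales. Of 24351 probe sets, 21448 were gene probe sets and 2903 were controls. Symbols came from the platform annotation, and every member found had 1 probe set.

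Groups were fitted with limma 3.58.1 in R 4.3.3 (lmFit, eBayes) over all gene probe sets, within each line, and over all 10 arrays for the difference of effects and of lines. Benjamini-Hochberg adjustment ran over the 21448 probe sets (threshold 0.05), and the fits were tested on simulated data. All 9 members are named. Up to 4 genes per related list were named by their smallest p in SK-N-AS, with MTF1 and SLC30A1 always named, and the 5 most alike genes were named by distance. Members and lists were chosen with earlier results of these data known. Alternatives were quantile and median scaling, eBayes with trend, leaving out dim probe sets, array weights, a shared fit, a replicate block for the SK-N-FI arrays, and each array left out in turn. Same-numbered SK-N-FI arrays deviated from their group means with r = -0.17 across probe sets, and the numbers were not taken as pairs. Arrays carry no counts, and their number limits the precision. No array scan order or batch is given in the labels used here.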

Additional observations from a re-analysis of the deposited data

How the results depend on the processing

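In SK-N-AS, each of 8 members kept its lower mean and missed the threshold under every alternative run, and limma called 0 probe sets under each (100 to 1123 at an unadjusted p under 0.05, the fewest with dim probe sets left out). With dim probe sets left out, 5 members remained to be fitted and 5 had lower means. In SK-N-FI, leaving out 1 array gave 3 to 7 lower means, a median change from -0.40 to 0.058, and changes from -0.52 to 0.39 for MT1G, -0.52 to 0.078 for MT1X, -0.39 to 0.038 for MT2A, -0.33 to 0.18 for MT1H and -0.075 to 0.52 for MT3. With the array number as a replicate block in SK-N-FI, 0 probe sets were called (471 at an unadjusted p under 0.05) and the members' median change was -0.13. The crossed block, chosen after seeing the data like the fit without arrays 25 and 28, also called 0 (924 unadjusted). The SK-N-AS arrays share no numbers between arms. For the difference of effects, leaving out 1 array gave -0.36 to 0.12 for MT1E, -0.40 to 0.13 for MT1F, -0.70 to 0.21 for MT1G, -0.36 to 0.15 for MT1H, -0.53 to 0.072 for MT1X and -0.33 to 0.10 for MT2A.

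Between the control lines, 12726 probe sets were called (2473 higher in SK-N-AS), 9999 after quantile normalization (5172 higher), 13454 after median scaling (7485 higher), 10722 to 12840 with 1 array left out, and 8213 with dim probe sets left out, where fewer were tested. MT1E moved to 1.21 with quantile normalization, 0.78 with median scaling, 0.013 with array weights and -0.22 to 0.086 with 1 array left out. MT1M moved to 1.39 with quantile normalization and 0.54 with median scaling, and MT1G to between -0.030 and 0.88 with 1 array left out. Signal near background limits MT1E, MT1H and MT3. No member has another probe set, so that alternative was not run.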

Other observations

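Copper, the other metal that metallothioneins bind, is handled by a set of genes of which 12 of 14 listed had a probe set. None was called in either line by limma, beside 0% of all probe sets. SLC31A1, the high-affinity copper importer, had a log2 signal of 13.21 in treated and 13.55 in control SK-N-AS cells, a change of -0.34, and of -0.15 in SK-N-FI. The copper-exporting pumps ATP7A and ATP7B had SK-N-AS changes of 0.45 and -0.37, both from signals above background on no SK-N-AS array, and COX11, which serves copper insertion into cytochrome oxidase, had 0.31. Treated means were lower for 3 of the 12 in SK-N-AS and for 10 of the 12 in SK-N-FI, beside 50.8% and 51% of all probe sets. Of the 12, 6 were above background on all SK-N-AS arrays and 3 on no array. Between control cells SLC31A1 was lower in SK-N-AS by a log2 difference of -2.26 (limma adjusted p = 3.91e-06), and by -2.00 after quantile normalization.

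Of 14 listed genes on the same chromosome as the cluster, 13 had a probe set. None of them was called in either line (limma), beside 0% of all probe sets. The median log2 change was -0.08 in SK-N-AS, with 7 lower means, and -0.07 in SK-N-FI, with 8. BBS2, next to the cluster among the genes listed, had 7.23 in treated and 7.82 in control SK-N-AS cells, a change of -0.59 (95% interval -1.13 to -0.06), and a change of 0.40 in SK-N-FI. MMP2 had a SK-N-AS change of -0.22 and NUDT21 of 0.25. LPCAT2 had 0.31, from signals above background on no SK-N-AS array. Between control cells 2 of the 13 were called higher and 7 lower in SK-N-AS as deposited, beside 11.5% and 47.8% of all probe sets, with a median difference of -1.37 beside -0.61. After quantile normalization 4 were called higher, BBS2 (1.59, limma adjusted p = 0.00116) among them, and 5 lower, beside 24.1% and 22.5%, with a median of -0.17 beside 0.035.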
